A study of Mus musculus with 24 samples.

Results

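The 115 probes described here were lower in the kidney microvessels of diabetic mice, and over both conditions together their renal level was under 3 times that of the highest other cell type. They came from 24 regions of mouse tissue sections hybridized with the GeoMx Mouse Whole Transcriptome Atlas. This is a set of barcoded probes made to target the RNA of named genes. The barcodes are cut loose by ultraviolet light from a chosen region and sequenced. The members were chosen by their renal values, by a rule on CPM, which is the count of a probe divided by the total count of its region and scaled to 1000000. A member had at least 10 counts in each of the 3 non-diabetic renal regions, its lowest non-diabetic renal CPM was over 1.3 times its highest diabetic renal CPM, and its median CPM plus 1 over the 6 renal regions was under 3 times the largest such value of the other cell types. That median includes the lowered diabetic regions, and in non-diabetic mice alone the renal mean was above each other cell type in 94 members, by up to 6.50-fold. Counts were found for 20186 probes in all, of which 5708 met the count minimum, and 166 of the latter were past the ratio. Of these 166 probes, 51 stood 3-fold or more above the other cell types and were left out, which left the 115 members. The list would have been capped at 150, a limit that was not reached. The same rule with the conditions exchanged, which finds probes higher in diabetic kidney, gave 171 probes.

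All mice were male C57BL/6J, and the labels name no transgene or targeted allele. The diabetic mice received streptozotocin, which destroys the pancreatic cells that make insulin, in doses of 50 mg/kg in citrate buffer over 5 days from 8 weeks of age, and the non-diabetic mice received the buffer alone. Tissues were taken 2 months later. CD31+ regions of the retina (retMECs), kidney (renMECs) and heart (carMECs) hold microvascular endothelial cells, and NeuN+ regions of the retina (neuronal) hold retinal neurons. There were 3 regions of each cell type per condition. With 3 mice per group and no label that says which mouse a region came from, the p-values measure the spread between regions and those of fits pooled over cell types are too small, since regions that share a mouse enter them separately. For carMECs, diabetic regions 2 and 3 are titled by the heart alone, without MECs. The probe identifiers in the files were not paired with gene names, so that the labelled cell types could not be set against their marker genes, and the members are given by their identifiers with no function and no sequence.

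As background, kidney endothelium includes the fenestrated capillaries of the glomerulus, which filter plasma, and the peritubular capillaries, which take back what the tubules reabsorb. Retinal capillaries are sealed by tight junctions into the blood-retinal barrier, and cardiac capillaries form a continuous lining close to the muscle fibres. High blood glucose is known to injure small vessels, and the kidney, retina and heart are organs in which diabetic complications arise.

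Depth and library differed between the groups. Total counts ran from 28722 to 1451915 per region and the highest total of each cell type was a non-diabetic region. They were 263315 to 1451915 in non-diabetic and 217736 to 356967 in diabetic renMECs, 71038 to 342522 and 28722 to 93113 in retMECs, 211272 to 521366 and 115269 to 153319 in carMECs, and 244551 to 788146 and 78053 to 168298 in neuronal regions. The 6 retMEC regions were on plate 1 and all others on plate 2, so that the retina's vessels and the plate cannot be told apart. The share of reads aligned to a probe was 39.9 to 61.0% in retMECs, 79.4% in diabetic carMEC region 2 and 90.2 to 96.7% elsewhere. In diabetic neuronal region 2, distinct molecules made up 66.7% of aligned reads, against at most 25.9% in the other regions. A lower count in a captured region cannot tell fewer cells of a type from less RNA per cell, and the light reaches whatever lies in the region.

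In renMECs the members fell by construction, and their values there are a description with no test. The ratio of the lowest non-diabetic to the highest diabetic renal CPM ran from 1.302 to 4.40 with a median of 1.46. It lay between 1.3 and 1.5 in 70 members, between 1.5 and 2 in 33, between 2 and 3 in 10 and above 3 in 2. Comparing means of 3 regions, the members were 1.44- to 9.44-fold lower in diabetic than in non-diabetic renMECs, with a median of 1.93-fold. Most members therefore differed by a moderate amount, and a small number stood out. The member closest to the ratio threshold had a ratio of 1.302, from a lowest non-diabetic value of 339 and a highest diabetic value of 261 CPM. The probe that just failed it had 1.299, from 83.6 and 64.3 CPM. At the limit on kidney enrichment, the last probe taken in stood 2.94-fold and the first one left out 3.06-fold above the highest other cell type.

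The size of the list depended on the scaling. With each region scaled by the 75th percentile of its probes' counts in place of its total, the same rule found 282 probes, of which 106 were members. These were 92.2% of the members and 37.6% of the longer list. A ratio of 1.5 left 45 members and a minimum of 20 counts left 104. With 1 renal region left out the rule is easier to meet and gave 188 to 246 probes. All 115 members were among them without any 1 of the non-diabetic regions, and 103 without any 1 of the diabetic ones (no cap was set for these counts). Without a diabetic region the median over the renal regions left is higher, and the other members then exceed the limit on kidney enrichment.

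**Figure D1:**
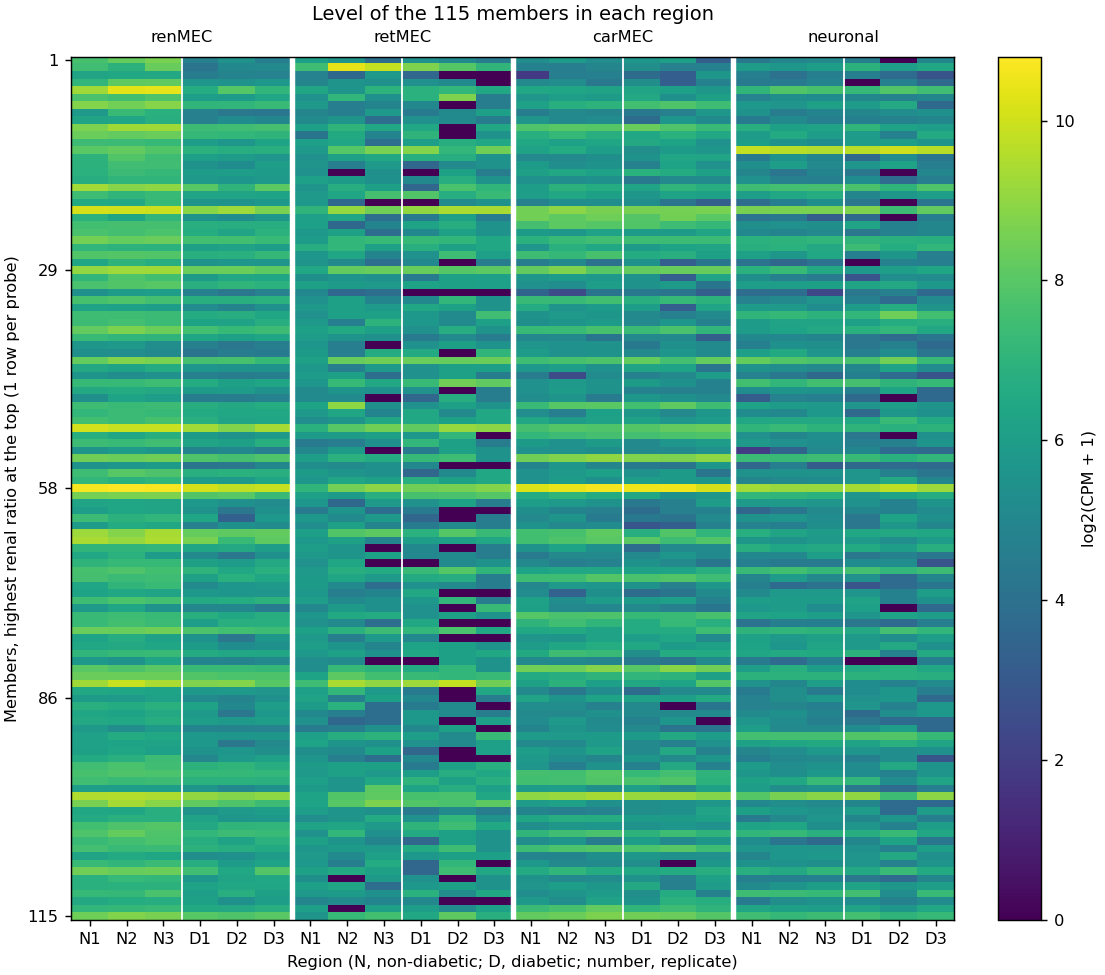
Each row is a member, ordered by its renal ratio from the highest at the top, each column a region, and the colour is log2(CPM + 1). The first 3 columns, the non-diabetic renMEC regions, are brighter than the 3 diabetic ones by selection, no such step runs through all rows in the other cell types, and the darkest cells, probes with no count, lie mostly in the shallow retMEC and diabetic neuronal regions.

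As a set, the members held a smaller share of the counts in diabetic than in non-diabetic kidney, as the rule requires. Their summed share was 2.43, 2.68 and 2.69% in the non-diabetic renMEC regions and 1.33, 1.22 and 1.28% in the diabetic ones, with means of 2.60% ± 0.15 and 1.28% ± 0.06 (SD, n = 3). The 5 highest members held 19.9% of the members' renal counts, and the difference of means in kidney was -1.09 percentage points without them and -1.32 with them. In the diabetic kidney the members' share was within the range found in the heart. In carMECs the share was 1.29% ± 0.11 in non-diabetic and 1.21% ± 0.06 in diabetic regions (SD, n = 3), and the regions of both conditions overlapped. In retMECs it was 0.960% ± 0.263 and 1.05% ± 0.125 (SD, n = 3), again overlapping. In neuronal regions it was 0.920% ± 0.004 and 0.888% ± 0.031 (SD, n = 3). Each of the 3 diabetic neuronal regions lay below the 3 non-diabetic ones, by a difference of means of -0.03 percentage points, and the groups overlapped when the 5 highest members were left out. The 95% Wilson interval of a region's share, which covers counting error only, reached 0.126 percentage points to either side in the least sequenced region, diabetic retMEC region 2, and 0.0211 in the narrowest case.

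**Figure D2:**
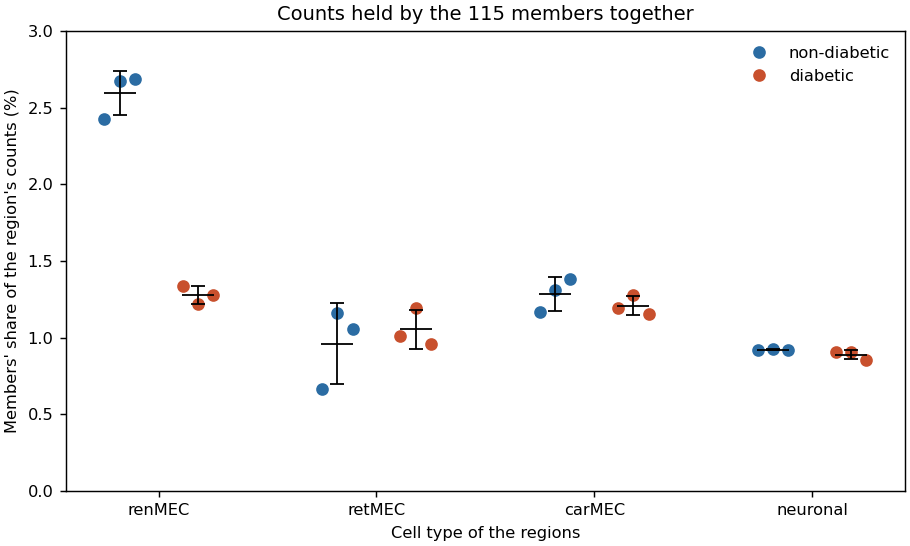
Share of each region's counts held by the 115 members together, in percent, with 1 point per region and with the mean and SD of 3 regions as bars, for non-diabetic and diabetic regions of each cell type. Diabetic renMECs at 1.22 to 1.33% lie near carMECs, and conditions overlap in retMECs and carMECs.

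The members were above a typical probe most clearly in kidney, which largely follows from the rule. Outside the kidney a part of the members was at or below that level. Their median CPM over 6 regions had a median of 112 in renMECs, 55.8 in retMECs, 56.3 in carMECs and 45.2 in neuronal regions, beside medians over all 20186 probes of 24.4, 34.9, 34.1 and 26.2. Much of the kidney result is set by the renal minimum of 10 counts. In non-diabetic renMEC region 2 this minimum is 38.0 CPM. The median over all probes of that region was 22.8 CPM and the 75th percentile 41.8 CPM. No such minimum held in the other cell types. In renMECs the members ran from 29.04 to 1345 CPM. Their median lay over the 75th percentile of all probes in 107 members in renMECs, 63 in retMECs, 75 in carMECs and 66 in neuronal regions. In all 4 cell types together 44 members, or 38.3%, were over it, against 10.3% of all probes, and 18 were over it in renMECs alone. Below the median of all probes were 24 members in retMECs, 24 in carMECs, 23 in neuronal regions and 0 in renMECs. Although kidney-enriched probes had been left out, renMECs had the highest median in 78 members (67.8%), carMECs in 18, neuronal regions in 10 and retMECs in 9. The commonest orders from high to low were renMEC, carMEC, retMEC, neuronal and renMEC, retMEC, carMEC, neuronal, with 19 members each.

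In kidney the level of the members above a typical probe differed between conditions, which follows from the choice of members on these renal values. The members' median CPM, divided by the median over all probes of the region, was 7, 7 and 7.61 in the non-diabetic renMEC regions and 2.60, 2.5 and 2.70 in the diabetic ones. In the 18 regions outside the kidney it was 1.19 to 2.00. In diabetic retMECs the members' median rests on as few as 2 counts, so a change could hardly show there. Set against the highest of the other cell types in the same condition, the mean renal CPM was the higher in 94 of 115 members in non-diabetic mice, over 2-fold in 51 of them, with a median ratio of 1.79. In diabetic mice it was the higher in 45 members, over 2-fold in 4, with a median ratio of 0.89. The choice of members on renal values raises the non-diabetic figures and lowers the diabetic ones.

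**Figure D3:**
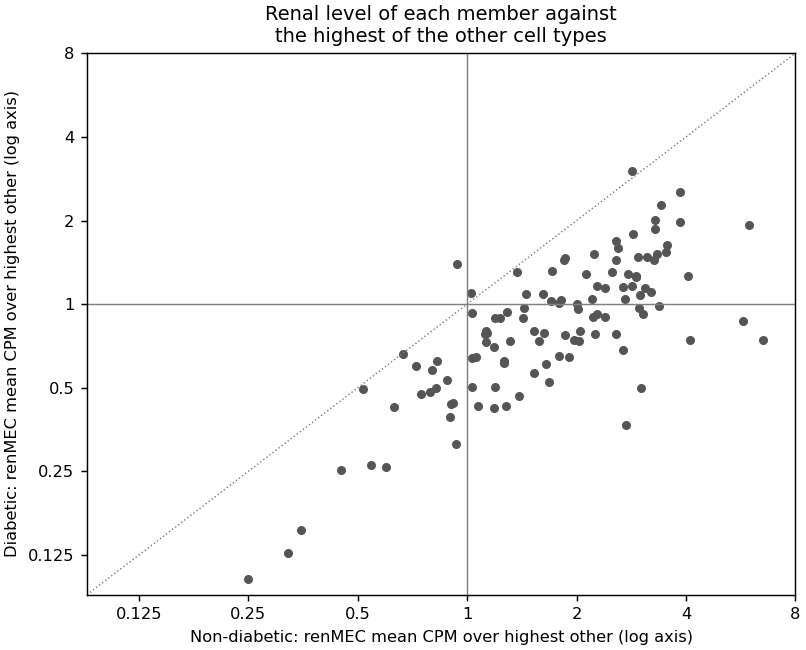
Mean CPM of each member in renMECs divided by its highest mean CPM among retMECs, carMECs and neuronal regions, in non-diabetic mice on the horizontal and in diabetic mice on the vertical axis, both logarithmic, with 1 point per member. Of 115 points, 94 lie right of 1 and 45 above 1, and most lie under the dotted line of equal ratios.

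Whether diabetes also lowered these probes outside the kidney was tested in the other cell types, whose values the rule used only as medians over both conditions. Each fit used the quasi-likelihood test of edgeR with upper-quartile scaling on all probes that passed a filter on low counts in a cell type, with Benjamini-Hochberg adjustment and a threshold of 0.05. Of the 115 members, 14 passed the filter in all 3 other cell types, 33 in 2, 33 in 1 and 35 in none. Members were missing from these fits mainly for want of counts. The 35 that passed in none, and the others where they did not pass, have no result there. In every fit, log2 fold changes are diabetic over non-diabetic.

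In carMECs, 64 members were among 3247 probes tested, of which 0.924% were called in either direction, 11 higher and 19 lower. Among the members 0 were called higher and 1 lower, RTS0071048. The unadjusted p was under 0.05 for 1 higher and 10 lower members, beside 65 and 204 of all probes. The median log2 fold change of the members was -0.26, beside -0.11 over all probes tested. The log2 fold change was below 0 in 51 of 64 members, beside 2002 of all 3247 probes. In 45 of the 64 members it was below the median of all probes. On CPM, the 3 diabetic carMEC regions lay wholly below the 3 non-diabetic ones in 6 of 64 members (9.38%), where the share over all probes tested was 5.36%, and wholly above in 2, where it was 7.95%. The remaining members overlapped between conditions.

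In neuronal regions, 59 members were among 4135 probes tested, of which 1.23% were called. Among the members 0 were called by edgeR and 0 by DESeq2, and the unadjusted p was under 0.05 for 3 higher and 4 lower members, beside 153 and 238 of all probes. The median log2 fold change was -0.02 for the members and -0.01 for all probes. The conditions did not overlap in 4 members that were lower (6.78%, beside 7.4% of all probes) and in 0 that were higher (beside 6.29%).

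In retMECs, the shallowest regions, 18 members were among 699 probes tested, and 0% of these probes were called. No member was called by edgeR or DESeq2, and the unadjusted p was under 0.05 for 2 higher and 0 lower members, beside 21 and 1 of all probes. The median log2 fold change was 0.23 for the members and 0.37 for all probes. The order of these medians turned where all probes entered, with 0.028 for the members and -0.36 for all probes without a filter, and 0.0069 and -0.33 with DESeq2. On CPM, 2 of the 18 members were wholly higher in diabetic regions, where the share over all probes tested was 15.3%, and 0 wholly lower, where it was 0%. The sign of the medians and the share wholly lower depended on non-diabetic retMEC region 1. Without it, the median log2 fold change was -0.15 for the 19 members and -0.03 for the 826 probes then tested. On CPM, 3 of the 18 members (16.7%) were then wholly lower, beside 9.16% of all probes. The median member had 4 to 19 counts in a non-diabetic and 2 to 5 in a diabetic retMEC region, and 23 members had no count in diabetic retMEC region 2. A change of the size seen in kidney was not detectable at this depth in most members. In carMECs and neuronal regions too, a change of about that size could go uncalled. RTS0065454 was at -0.93 in carMECs (adjusted p = 0.219, edgeR) and RTS0071048 at -1.10 in neuronal regions (adjusted p = 0.262, edgeR). In carMECs RTS0071048 was called, at -1.09. A member not called there is not thereby shown to be unchanged.

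**Figure D4:**
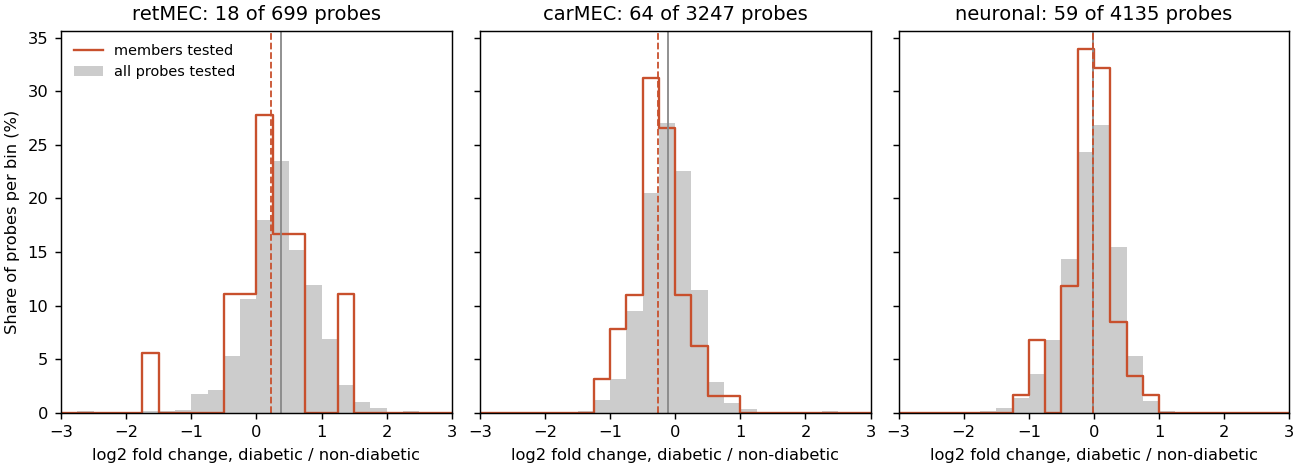
Share of probes in each 0.25-wide bin of log2 fold change, diabetic over non-diabetic, for the members tested (line) and all probes tested (grey) in retMECs, carMECs and neuronal regions, with the median of the members dashed and that of all probes solid. The members' median was -0.26 against -0.11 in carMECs, and the medians were closest, at -0.02 and -0.01, in neuronal regions.

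Pooled over retMECs, carMECs and neuronal regions, with cell type as a term, 72 members were among 4486 probes tested and 0.111% of these were called. The members called numbered 0 by edgeR and 0 by DESeq2, the unadjusted p was under 0.05 for 0 higher and 3 lower ones, beside 86 and 122 of all probes, and the median log2 fold change was -0.07, beside -0.01. Over these 72 members, the mean CPM was lower in diabetic regions in all 3 of the other cell types for 7 (9.72%, the same share as in the 4486 probes, 9.72%), in 2 for 32 (44.4% beside 37.1%), in 1 for 27 (37.5% beside 39.2%) and in none for 6 (8.33% beside 13.95%). Without the retMEC regions, which leaves the plate shared by carMECs and neuronal regions, 80 members were among 6220 probes tested. Then 3 members fell at an adjusted p (edgeR) under the threshold and 0 rose, where 0.82% of all probes tested were called lower. They were RTS0071048, RTS0065454 and RTS0067591, and the median log2 fold change of the 80 members was -0.15, beside -0.08 over all probes.

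The difference of the diabetes effect between cell types was tested on the same 72 members and 4486 probes. Between carMECs and neuronal regions 0.0223% of the probes and 0 members were called by edgeR, with an unadjusted p under 0.05 for 1 higher and 1 lower member, and 0 members by DESeq2. Between retMECs and carMECs 0.178% of the probes and 1 member were called, and between retMECs and neuronal regions 0.646% and 1 member. RTS0065454 was that member in both, higher in retMECs.

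RTS0071048 was the member called lower in carMECs. It stood at 236, 243 and 236 CPM in non-diabetic and 109, 115 and 147 CPM in diabetic renMECs. In carMECs it had 171, 147 and 203 CPM in non-diabetic regions (67, 31 and 106 counts) and 97.8, 109 and 69.4 CPM in diabetic ones (15, 13 and 8 counts). In neuronal regions it had 69.8, 52.0 and 85.9 against 24.4, 51.2 and 23.8 CPM, the latter from 4 counts in each region. Each diabetic value lay below each non-diabetic one in carMECs and, by a narrow gap, in neuronal regions. In renMECs the rule requires this order. In retMECs it had 49.6, 81.7 and 28.2 against 43.0, 174 and 66.7 CPM, which overlapped. The log2 fold change in carMECs was -1.09 ± 0.29 (SE), with an adjusted p of 0.0265 (edgeR). This call was lost when any single carMEC region other than non-diabetic region 1 was left out, with adjusted p-values (edgeR) of 0.0504 and 0.276 when non-diabetic region 2 or 3 was dropped, and of 0.365, 0.0913 and 0.326 when diabetic region 1, 2 or 3 was. The log2 fold change stayed between -1.22 and -0.89 over the 6 fits that each left out 1 region. Without non-diabetic region 1 the adjusted p (edgeR) was 0.0159, and RTS0066752 and RTS0081564 were then called lower too, so that 3 members were. These 2 are named after their values were seen. In neuronal regions the log2 fold change of RTS0071048 was -1.10 ± 0.43 (SE), with an adjusted p of 0.262 (edgeR). Over carMECs and neuronal regions together it was -1.10 ± 0.24 (SE), with an adjusted p of 0.00199 (edgeR).

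RTS0065454, lower in diabetic kidney by selection, was lower in the heart and retinal neurons of diabetic mice and higher in their retinal vessels. It stood at 367, 395 and 403 against 230, 253 and 153 CPM in renMECs, at 99.6, 133 and 97.8 against 84.8, 41.8 and 52.1 CPM in carMECs and at 140, 133 and 119 against 48.8, 76.9 and 101 CPM in neuronal regions. Non-diabetic values come first. In retMECs it had 67.1, 58.4 and 113 CPM in non-diabetic and 204, 209 and 245 CPM in diabetic regions. In renMECs the rule requires that the conditions do not overlap. They did not overlap in any of the 3 other cell types either, with the opposite order in retMECs. The retMEC values rest on 23, 5 and 8 counts in non-diabetic and 19, 6 and 11 counts in diabetic regions. The log2 fold change was 1.40 ± 0.64 (SE) in retMECs, with an adjusted p of 0.98, -0.93 ± 0.33 in carMECs, with 0.219, and -0.79 ± 0.32 in neuronal regions, with 0.281 (edgeR). None of the 3 passed the threshold alone. The effect in retMECs exceeded that in carMECs by 2.43 ± 0.58 (SE; adjusted p = 0.0392, edgeR) and that in neuronal regions by 2.26 ± 0.56 (SE; adjusted p = 0.0273, edgeR). Of the 18 regions left out in turn, the call against carMECs held without non-diabetic retMEC region 3 or diabetic retMEC region 2 and was lost without each of the others, with adjusted p-values (edgeR) up to 0.482 without diabetic retMEC region 1. The call against neuronal regions held without non-diabetic retMEC region 3, diabetic retMEC region 2, each carMEC region or non-diabetic neuronal region 3, and was lost without each of the others, with adjusted p-values (edgeR) up to 0.214 without diabetic retMEC region 1. Over carMECs and neuronal regions together the log2 fold change was -0.86 ± 0.23 (SE), with an adjusted p of 0.0287 (edgeR).

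RTS0067591, named after its values were seen, was a low probe that fell over carMECs and neuronal regions together, by a log2 fold change of -1.06 ± 0.30 (SE; adjusted p = 0.0468, edgeR). It stood at 40.4, 38.0 and 35.1 against 16.8, 22.96 and 21.0 CPM in renMECs, with 10 to 51 counts in non-diabetic and 5 to 7 in diabetic regions. In neuronal regions it had 67.1, 92.6 and 49.1 CPM in non-diabetic and 24.4, 38.4 and 17.8 CPM in diabetic regions, the latter from 4, 3 and 3 counts, and the groups did not overlap. In carMECs it had 61.3, 42.6 and 44.1 against 32.6, 50.2 and 34.7 CPM, which overlapped. It did not pass the filter on low counts in neuronal regions alone, and was called lower there without non-diabetic neuronal region 3 (adjusted p = 0.0138, edgeR) and without diabetic neuronal region 2 (adjusted p = 0.0323, edgeR). With any other single neuronal region left out, no member was called lower there. The same held without a filter, with DESeq2 and in 1 model of all 24 regions, fits that held all 115 members.

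RTS0076934 had the highest renal ratio. It stood at 202, 304 and 392 CPM in non-diabetic and 25.2, 45.9 and 23.96 CPM in diabetic renMECs, which is 9.44-fold lower by the means. The diabetic renal values lay within the range of the other cell types. It had 70.1, 46.7 and 14.1 against 43.0, 34.8 and 22.2 CPM in retMECs, 38.3, 61.5 and 38.4 against 52.2, 66.9 and 8.68 CPM in carMECs, and 18.8, 29.2 and 32.7 CPM against 24.4, 0 and 29.7 CPM in neuronal regions. The conditions overlapped in each of these 3 cell types. The probe passed the filter on low counts in none of them, so it has no test outside the kidney. The median over all probes was 28.0, 27.6 and 30.0 CPM in the diabetic renMEC regions. It was 32.6 to 38.3 CPM in carMECs and 23.8 to 29.2 CPM in neuronal regions. From levels near these a fall could hardly show.

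RTS0079235, second by renal ratio, had its highest values in the retina's vessels. In renMECs it had 178, 122 and 310 CPM in non-diabetic and 16.8, 32.1 and 32.9 CPM in diabetic regions, 7.44-fold lower by the means. In retMECs it had 175, 1331 and 929 CPM in non-diabetic and 419, 244 and 133 CPM in diabetic regions. Non-diabetic regions 2 and 3 were high there, and region 1, the deepest of the retMEC regions, lay among the diabetic ones. The log2 fold change in retMECs was -1.62 ± 0.86 (SE), with an adjusted p of 0.98 (edgeR). In neuronal regions it had 59.0, 52.0 and 65.4 against 122, 64.1 and 89.1 CPM, with a log2 fold change of 0.78 ± 0.32 (SE; adjusted p = 0.305, edgeR). In carMECs, at 25.5, 23.7 and 28.8 against 39.1, 25.1 and 26.0 CPM, it was low in both conditions. The effect in retMECs minus that in neuronal regions was -2.22 ± 0.70 (SE; adjusted p = 0.139, edgeR), and without non-diabetic retMEC region 1 it was -2.75 ± 0.47 (SE; adjusted p = 0.000133, edgeR). RTS0079235 was called in no other fit.

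RTS0066080 went the other way in the heart. It stood at 438, 357 and 463 against 134, 138 and 159 CPM in renMECs. In carMECs it had 71.5, 109 and 127 CPM in non-diabetic and 183, 226 and 174 CPM in diabetic regions, and each diabetic value was above each non-diabetic one. The log2 fold change in carMECs was 0.75 ± 0.27 (SE), with an adjusted p of 0.219 (edgeR). With TMM scaling in place of upper-quartile scaling it was 0.94 ± 0.27 with an adjusted p of 0.0389 (edgeR). It was low in retMECs, at 55.5, 23.3 and 28.2 against 32.2, 0 and 22.2 CPM. In neuronal regions, at 53.7, 48.2 and 69.5 against 61.0, 89.7 and 11.9 CPM, the conditions overlapped.

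RTS0068801 was an abundant member, at 533, 589 and 610 against 325, 335 and 267 CPM in renMECs. In neuronal regions it had 118, 161 and 90.0 CPM in non-diabetic and 54.9, 64.1 and 83.2 CPM in diabetic regions, which did not overlap, with a log2 fold change of -0.93 ± 0.32 (SE; adjusted p = 0.167, edgeR). In carMECs it had 294, 417 and 257 against 294, 309 and 312 CPM, and in retMECs 84.7, 292 and 310 against 311, 244 and 267 CPM. Both of these overlapped, and in retMECs the 1 low value was that of non-diabetic region 1.

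**Figure D5:**
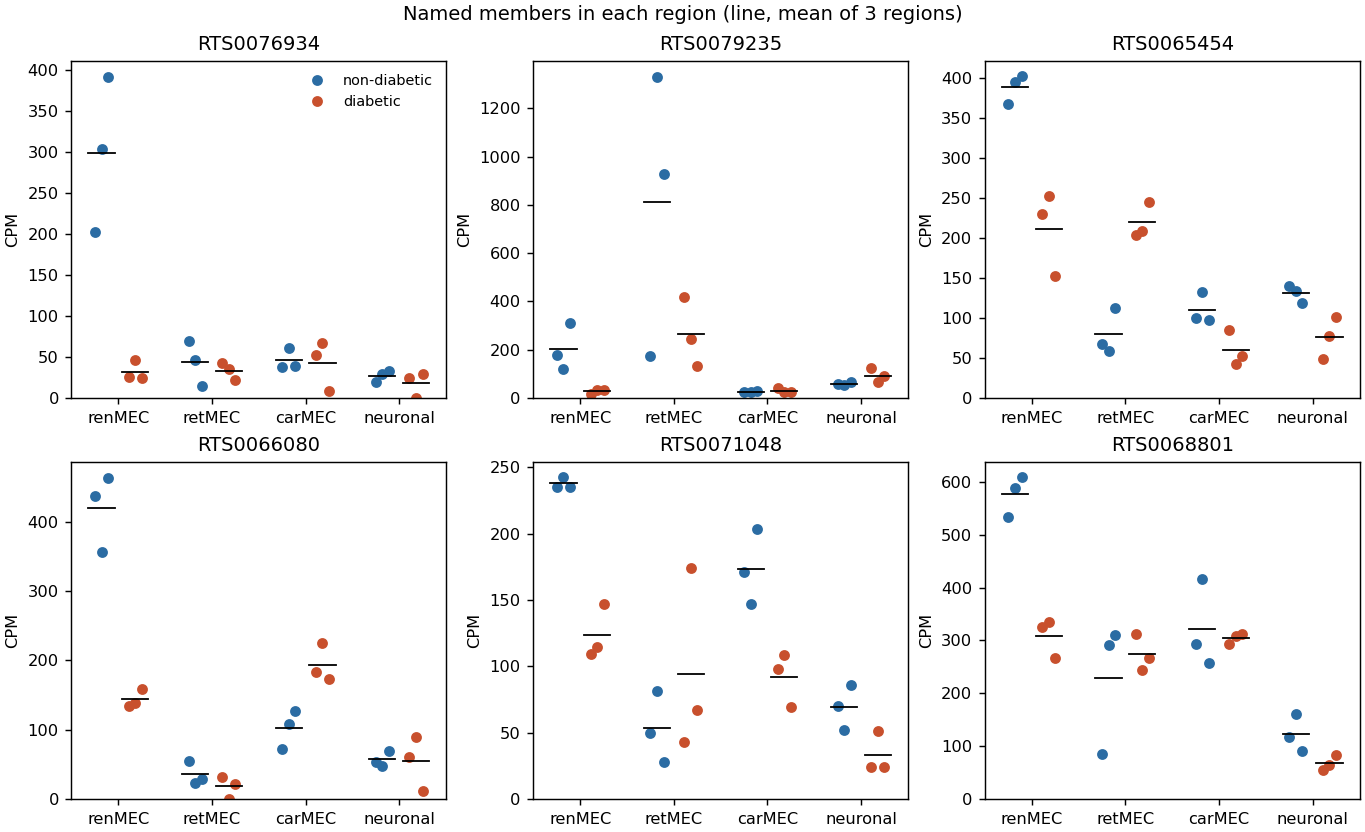
CPM of 6 members in each region, with 1 point per region and a line at the mean of 3, for non-diabetic and diabetic regions of each cell type. All are lower in diabetic renMECs by selection. RTS0071048 was lower in diabetic carMECs and neuronal regions too. RTS0065454 was lower in the same 2 cell types and higher in retMECs, at 204 to 245 against 58.4 to 113 CPM, and RTS0066080 was higher in diabetic carMECs.

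Of the 80 members tested in at least 1 other cell type, 8 (10%) had diabetic regions wholly below the non-diabetic ones in at least 1 of them, beside 8.27% of the 5513 probes tested in at least 1. In 2 members (2.5%), RTS0071048 and RTS0065454, this was so in carMECs and neuronal regions, and 0.435% of all these probes were wholly lower in at least 2 cell types. Diabetic regions lay wholly above in at least 1 cell type in 4 members (5%), beside 10.9% of all. In 1 member, RTS0065454, both occurred, as in 0.762% of all. Of the 80 members, 33 were tested in 2 cell types and 14 in 3. The 5513 probes were less often tested in more than 1, so they had fewer chances to qualify and these shares have unlike bases.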

How the data were processed

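The authors' deposited files hold counts, one file per region: the number of distinct molecules of each probe after the GeoMx NGS Pipeline (version 2.3.4, per the submitters' processing notes) had aligned reads to probe barcodes and removed PCR duplicates. A probe that a file does not list was taken as 0. The genome build in those notes is mm10. No background subtraction was made, and the deposited counts were not normalized. The paper left out genes flagged with warnings in its quality control, and no probe was left out on that ground here. The 20186 probes outnumber the genes that the paper counts, and without gene names the extra ones could not be told apart.

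Members were found by the rule given with the results, and the members and lists were chosen with earlier results of these data known. Diabetes was tested per cell type, pooled over retMECs, carMECs and neuronal regions with cell type as a term, and between cell types as an interaction, with edgeR 4.0.16 in R 4.3.3: upper-quartile factors (75th percentile over all probes), filterByExpr with a minimum of 10 counts, the quasi-likelihood test and Benjamini-Hochberg adjustment over all probes tested, at a threshold of 0.05. Alternatives were TMM or total-count scaling, DESeq2 1.42.0, other filters, a replicate block, 1 model of all 24 regions, fits without retMECs or without diabetic carMEC regions 2 and 3, and leaving out each region in turn. The fits were also run on simulated counts with the same spread for all probes, a simpler setting than these data, and no result here rests on that. The upper-quartile factors, TMM factors and totals put the median of all probes at different places, so changes are read beside that median.

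Named probes were the 2 members with the highest renal ratio and, in each of the other cell types, the member with the smallest edgeR p in each direction, plus up to 2 per direction called in the pooled fit. Others are named where a count of members is small, after their values were seen. Replicates of a group differed by more than sampling noise (chi-square per degree of freedom 1.06 to 3.03). Total counts were 28722 to 1451915 per region. Intervals cover counting error only.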

Additional observations from a re-analysis of the deposited data

Results flagged for a closer look

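The diabetes effect on RTS0065454 differed between cell types by the test of the difference itself. It was higher in retMECs than in carMECs by 2.43 on the log2 scale (SE 0.58, adjusted p = 0.0392, edgeR), and higher in retMECs than in neuronal regions by 2.26 (SE 0.56, adjusted p = 0.0273, edgeR). All 3 diabetic retMEC regions lay above the 3 non-diabetic ones, and all 3 diabetic carMEC and all 3 diabetic neuronal regions below. The retMEC regions hold 5 to 23 counts of the probe and lie on a plate of their own. With DESeq2 the adjusted p was 0.0194 for retMECs against carMECs and 0.0124 for retMECs against neuronal regions. With TMM scaling it was 0.134 and 0.0562 (edgeR). Without diabetic retMEC region 1 it was 0.482 and 0.214 (edgeR).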

How the results depend on the processing

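In carMECs, the 1 member called lower became 0 with total counts, DESeq2, no filter, 10 counts in every region or 1 model of all 24 regions, and with TMM 0 were lower and 1 higher. It was 0 too without diabetic carMEC regions 2 and 3, a fit that leaves 1 diabetic region, assumed to vary like the others, and that says little about the call. The members' median log2 fold change there was -0.067 with TMM and -0.075 with DESeq2, where the medians of all probes were 0.098 and 0.0097. Neuronal calls were 1 lower with total counts (RTS0067591). The members' neuronal median was -0.14 without a filter and in 1 model of all regions, beside -0.14 and -0.11 over all probes. Pooled without retMECs, 3 members were lower. The 1 member higher in retMECs than in carMECs became 0 with TMM, no filter or 10 counts in every region, and that above neuronal regions became 0 under the same settings. The median difference for retMECs minus carMECs was 0.067 with DESeq2 and 0.71 with 10 counts in every region, beside -0.38 and 0.35 over all probes. For retMECs minus neuronal regions it was -0.076 with DESeq2, 0.043 without a filter and 0.58 with 10 counts in every region, beside -0.35, -0.23 and 0.47 over all probes. Under these settings the members' median stayed above that of all probes, which did not hold in each fit with 1 region left out. In the paired fit (replicate block), 0 members were called lower in carMECs (RTS0071048 at -1.06, adjusted p = 0.0628, edgeR) and 0 higher in retMECs than in carMECs, and no other count of calls changed. The numbers were not taken to pair the regions, since correlations between same-numbered regions' deviations from their group means ran from -0.12 to 0.11 and in 0 cell types were all over 0.1.

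Values that changed sign were those of RTS0079235 pooled (0.57 without retMECs), RTS0065454 pooled (0.0094 without diabetic carMEC regions 2 and 3), RTS0068801 in carMECs (0.0049 with DESeq2), RTS0066080 in neuronal regions (-0.56 to 0.33 with 1 region left out, the latter without diabetic region 3) and RTS0068801 in retMECs (-0.20 to 0.55 with 1 region left out, with -0.20 without non-diabetic and -0.04 without diabetic region 1). None of these had passed the threshold. The rule gave 282 members with 75th percentile scaling, 45 at a ratio of 1.5 and 188 to 246 with 1 renal region left out. Members with conditions that did not overlap numbered, without a filter, 7 lower and 4 higher in retMECs, 12 and 5 in carMECs and 10 lower in neuronal regions. As shares of the members, beside those of all probes, the lower ones were 6.09% beside 9.17%, 10.4% beside 7.17% and 8.70% beside 9.73%, and the higher ones in retMECs and carMECs 3.48% beside 2.80% and 4.35% beside 4.34%. With 75th percentile scaling 9 were lower (14.1% beside 9.64%) and 1 higher (1.56% beside 4.19%) in carMECs, and 3 lower (5.08% beside 7.57%) and 2 higher (3.39% beside 5.71%) in neuronal regions. In retMECs 0 were lower and 3 higher with this scaling (16.7% beside 10.3%), against 11.1% beside 15.3% higher on CPM, so that the order of the shares turned. The summed share differed by -1.09 percentage points in renMECs without the 5 highest members. On the 94 probes with 10 counts in every region, which hold 2 members, it differed by -0.46 in carMECs and -0.16 in neuronal regions. The cause of these shifts was not tested.

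Leaving out each region in turn gave 0 to 3 members lower in carMECs (3 without non-diabetic region 1) and 0 to 1 in neuronal regions, 0 to 1 higher in retMECs than in carMECs, and 0 to 2 higher and 0 to 1 lower in retMECs than in neuronal regions. Median log2 fold changes ran from -0.15 to 0.58 in retMECs, -0.33 to -0.10 in carMECs, -0.14 to 0.013 in neuronal regions and -0.15 to -0.02 pooled. The median differences ran from -0.28 to -0.06 for carMECs minus neuronal regions, 0.11 to 0.58 for retMECs minus carMECs and 0.11 to 0.45 for retMECs minus neuronal regions. Without diabetic retMEC region 2 the last 2 were below those of all probes (0.32 beside 0.33 and 0.18 beside 0.25). For retMECs minus neuronal regions this was so too without non-diabetic retMEC region 3 (0.28 beside 0.32) or diabetic neuronal region 1, 2 or 3 (0.21 beside 0.26, 0.14 beside 0.15 and 0.25 beside 0.27). Members that did not overlap numbered 0 to 3 lower and 2 to 4 higher in retMECs, 7 to 14 and 3 to 5 in carMECs, and 6 to 11 and 2 to 5 in neuronal regions. The shares of all probes rose too, to 0 to 9.16% lower and 15.3 to 31.3% higher in retMECs, 7.15 to 11.8% and 10.8 to 16.4% in carMECs, and 9.89 to 15.4% and 8.56 to 14.002% in neuronal regions. Depth limits retMECs most, where the filter kept 18 members.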
